A study of Mus musculus with 18 samples.

Results

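The genes described here are named for proteins of the mitochondrial ribosome, though Mrps36 is now assigned to another complex. They were chosen by symbol: every gene whose symbol starts with Mrpl or Mrps followed by a digit, measured by a probe set that the platform's table assigns to that gene alone. This gave 77 members among 19475 measured genes, 48 with large-subunit symbols and 29 with small-subunit symbols. Mrpl53 was not counted, since its only probe set is shared with Ccdc142. By mean signal over the arrays, 76 of the 77 lay above the median gene, and the lowest, Mrps36, lay at the 48.7th percentile. Detection above background was not tested.

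The cells were primary macrophages grown from mouse bone marrow in medium conditioned by L929 cells and taken on day 7 of differentiation. The mice had a mixed C57BL/6 and 129/Ola background. HET cells carried 1 intact copy of Wbp7 (Wbp7+/-) and served as the controls, and KO cells carried none (Wbp7-/-); no wild-type cells were among the groups. Wbp7, also named Kmt2b, encodes an enzyme that methylates histone H3 on lysine 4. Macrophages of both genotypes stayed untreated or received 10 ug/ml lipopolysaccharide (LPS), the bacterial product sensed through Tlr4, for 2 h or 4 h. Each of these 6 groups held 3 Affymetrix arrays.

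Values are log2 signals. Changes are differences on that scale, each with its standard error (SE) from limma fitted to the whole table. A gene is said to have risen or fallen, or to be called, where the p adjusted over the table (Benjamini-Hochberg) was under 0.05. The labels do not say whether arrays of a group came from separate animals, so p-values measure only the spread between these arrays, which may be technical.

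Mitochondria carry their own ribosome, which translates the few membrane proteins of the respiratory chain that are encoded in mitochondrial DNA. Its RNAs come from mitochondrial DNA, whereas all of its proteins are encoded in the nucleus, made in the cytosol and imported. Some of these proteins descend from those of the bacterial ribosome, and others joined the mitochondrial ribosome later and have no bacterial counterpart. In macrophages, LPS is known to shift energy metabolism from respiration towards glycolysis.

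Promoter sequences are shown for 6 of the 8 members that were called at 4 h of LPS in both genotypes, a choice made after their values were seen. Each is the 250 bases before the annotated start in RefSeq (GRCm38.p6), on the strand of the gene, with motif matches in capitals. Whether these starts were in use in the cells was not measured. Mrpl49, Mrps26, Mrps23 and Mrpl43 fell with LPS:
Mrpl49 promoter (chr19:6057756-6058005, minus strand): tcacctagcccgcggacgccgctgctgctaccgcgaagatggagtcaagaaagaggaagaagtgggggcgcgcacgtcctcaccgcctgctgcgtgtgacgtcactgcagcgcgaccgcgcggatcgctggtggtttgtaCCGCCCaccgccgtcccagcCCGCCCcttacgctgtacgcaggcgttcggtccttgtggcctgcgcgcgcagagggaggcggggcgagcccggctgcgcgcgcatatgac
Mrps26 promoter (chr2:130563507-130563756, plus strand): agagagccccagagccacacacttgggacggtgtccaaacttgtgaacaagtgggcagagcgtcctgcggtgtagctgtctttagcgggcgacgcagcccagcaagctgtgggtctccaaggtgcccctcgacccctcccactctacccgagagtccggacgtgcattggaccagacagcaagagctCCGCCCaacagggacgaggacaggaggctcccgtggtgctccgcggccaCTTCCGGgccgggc
Mrps23 promoter (chr11:88204138-88204387, plus strand): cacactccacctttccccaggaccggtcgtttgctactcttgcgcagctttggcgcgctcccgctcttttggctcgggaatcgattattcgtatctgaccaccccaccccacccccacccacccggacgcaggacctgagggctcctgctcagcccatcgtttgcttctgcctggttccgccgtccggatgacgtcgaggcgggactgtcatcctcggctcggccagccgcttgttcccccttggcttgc
Mrpl43 promoter (chr19:45006443-45006692, minus strand): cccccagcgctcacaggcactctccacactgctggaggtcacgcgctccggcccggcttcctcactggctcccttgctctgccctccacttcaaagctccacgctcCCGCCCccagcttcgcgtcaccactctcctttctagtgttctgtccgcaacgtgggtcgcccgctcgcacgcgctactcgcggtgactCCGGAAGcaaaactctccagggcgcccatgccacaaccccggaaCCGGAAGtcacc

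Mrpl52 and Mrpl30 rose with LPS:
Mrpl52 promoter (chr14:54426659-54426908, plus strand): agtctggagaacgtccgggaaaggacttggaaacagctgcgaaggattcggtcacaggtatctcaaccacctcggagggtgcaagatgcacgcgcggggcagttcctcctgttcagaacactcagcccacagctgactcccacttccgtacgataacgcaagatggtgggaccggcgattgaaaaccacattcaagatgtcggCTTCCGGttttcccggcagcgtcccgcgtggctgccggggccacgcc
Mrpl30 promoter (chr1:37890227-37890476, plus strand): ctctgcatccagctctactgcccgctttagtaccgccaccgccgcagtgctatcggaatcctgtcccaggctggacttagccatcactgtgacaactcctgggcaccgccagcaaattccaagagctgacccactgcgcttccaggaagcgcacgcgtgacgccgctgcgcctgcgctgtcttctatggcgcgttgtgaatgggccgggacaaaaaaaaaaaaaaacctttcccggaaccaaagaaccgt

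The capitals mark cores searched on both strands: the ETS core CCGGAAG and the GC box GGGCGG, either as written or as their reverse complement. The search also covered the NRF1 core GCATGCGC, the YY1 core AAGATGGC and the E-box CACGTG, over windows that run 50 bases past the start. Positions count from the start. Mrps26 held an ETS core at −14 to −8 and a GC box at −63 to −58. Mrpl43 held ETS cores at −56 to −50 and at −12 to −6. Mrpl52, which rose, held ETS cores at −47 to −41 and at 3 to 9. Mrps23 held an ETS core past the start, at 16 to 22, and Mrpl49 a YY1 core at 17 to 24. No core was found in the window of Mrpl30, which rose, nor in that of Mrps31, which fell and is not shown. Mrpl36, which fell and is not shown either, held an E-box at −43 to −38 and a YY1 core at −30 to −23.

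ETS, YY1 and NRF1 cores and GC boxes were in larger shares of the members' windows than of all windows in the RefSeq table. The windows of all genes were not matched to those of the members by signal or base content. What part of the differences this makes up was not tested. The table matched 68 members with 74 windows, leaving Mrpl15, Mrpl38, Mrps34, Mrps28, Mrpl13, Mrpl4, Mrpl54, Mrps35 and Mrpl19. The ETS core was in 33.8% of the 74 windows against 8.86% of all 32851 windows. The YY1 core was in 16.2% against 2.75%, the NRF1 core in 10.8% against 2.71%, and the GC box in 52.7% against 35.7%. The E-box, the core bound by Myc and Max, was in 9.46% against 7.15%. Within the members, the ETS core was in 9 of 29 windows of genes that fell in HET at 4 h and in 16 of 45 others. The YY1 core was in 2 of those 29 windows and 10 of the other 45, and the E-box in 5 and 2. These are counts of letters in a window, not measured binding.

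The HET arrays numbered replicate 1 differed from the other HET arrays in these genes at every time. Untreated, 63 of 77 members were lower on that array than the mean of the other 2, with a median difference of −0.18. At 2 h this held for 75 members (median −0.42) and at 4 h for 69 (median −0.39). The same arrays were far lower for the 24 measured cell cycle genes, with medians of −2.91, −2.75 and −2.30 and 24 of 24 genes lower each time, and near the others for cytosolic ribosomal proteins (0.00, −0.05 and −0.01). All 8 macrophage markers lay above the 75th percentile of signal, while 5 of 6 lymphocyte, 2 of 2 erythroid and 4 of 4 mast cell markers lay below the median gene; of 8 neutrophil markers 1, Ngp, lay above the 75th percentile, and of 5 stromal markers 0 did. The part of cell cycle or cell makeup in the members' values was not tested. In such bulk RNA, fewer cells of a type and less RNA per cell cannot be told apart. Wbp7 (Kmt2b) itself was not called between genotypes on its probe set, whose place relative to the deletion is not known here (KO minus HET −0.24, −0.06 and −0.09; adjusted p = 1, 0.915 and 0.718 at the 3 times). With 4 h of LPS it fell in HET by 0.48 (adjusted p = 0.0249), and its KO change was −0.33 (adjusted p = 0.19).

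**Figure D1:**
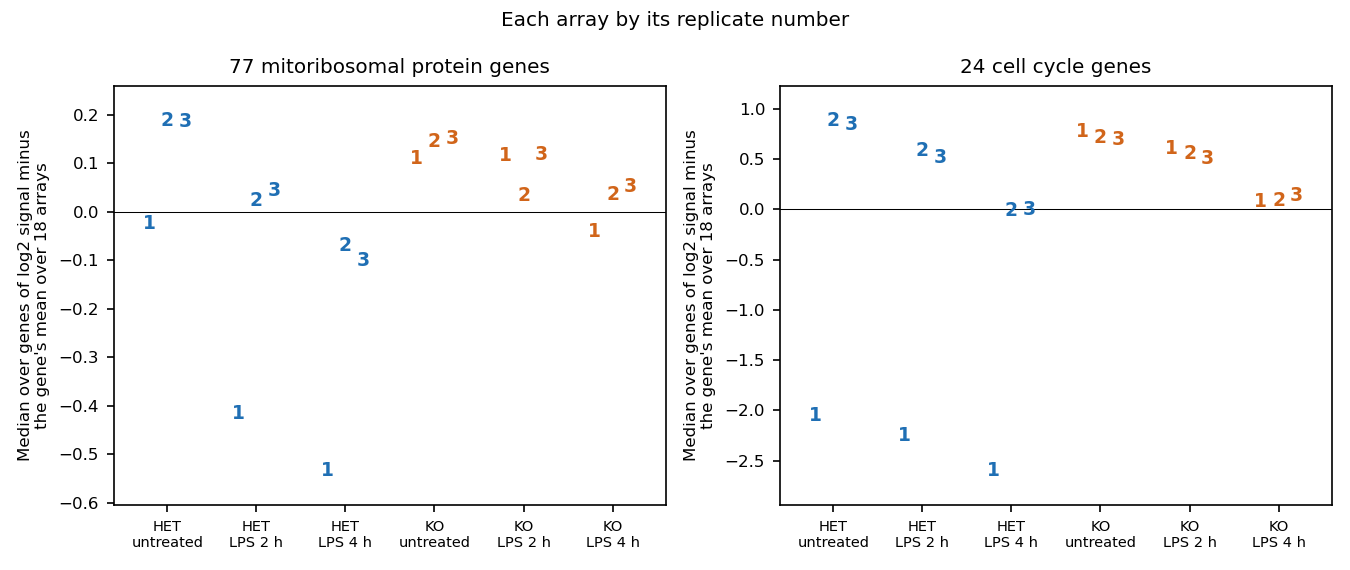
Median over the 77 members (left) and over 24 cell cycle genes (right) of the log2 signal minus each gene's mean over 18 arrays, with each array drawn as its replicate number by genotype and LPS time. HET replicate 1 is lowest in its group in both panels at all 3 times, down to −0.53 for the members at 4 h, while the KO arrays at 4 h lie between −0.04 and 0.05.

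After 2 h of LPS some mitoribosomal protein transcripts were lower in HET cells. Their share was not above that of all genes in every setting. Of 77 members, 12 fell and 0 rose, led by Mrpl49 (large subunit) and Mrps23 and Mrps26 (small subunit). Over all genes, 10.0% fell and 5.56% rose, and with dim genes (the lowest 40% by mean signal) left out 16.9% fell, against 15.6% of the members. The median member changed by −0.19, against 0.03 for all genes. Without the 2 h replicate 1 array alone it changed by −0.06, and by −0.12 (−0.115) with quantile normalization. At an unadjusted p under 0.05 in limma, 20 of 77 members and 5113 of all 19475 genes were counted. The shares were nearly equal.

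Mrpl49 read 11.04, 11.02 and 11.29 in the untreated HET arrays and 10.00, 10.35 and 10.24 at 2 h. All 3 treated arrays lay below all 3 untreated ones, and the difference was −0.92 (SE 0.124, adjusted p = 0.000101 in limma). Mrps23 went from 11.04, 11.003 and 11.08 to 10.02, 10.43 and 10.46, a difference of −0.74 (SE 0.112, adjusted p = 0.000288). For Mrps23 replicate 1 was the lowest of the treated arrays, and the groups did not overlap. Mrps26 fell by 0.63 (SE 0.196, adjusted p = 0.0417), Mrpl41 by 0.62 and Mrps35 by 0.57. Without the 2 h replicate 1 array alone these were −0.50, −0.33 and −0.32, and none was called (adjusted p = 0.194, 0.267 and 0.257). Nor were they called with arrays centred or quantile normalized, or from the arrays of the comparison alone. With HET replicate 1 left out at all times, Mrpl41 (−0.44) and Mrps35 (−0.41) kept their calls (adjusted p = 0.0131 and 0.0283, limma).

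Of the 12, 6 belong to the 10 small-subunit proteins that have no bacterial counterpart: Mrps23, Mrps26, Mrps35, Mrps25, Mrps31 and Mrps34. None of the 16 small-subunit proteins with a counterpart was called, and 1 of them had an unadjusted p under 0.05. The other 6 that fell were large-subunit proteins, among them Mrpl43, Mrpl1, Mrpl17 and Mrpl36. With HET replicate 1 left out at all times 11 members fell, against 9.4% of all genes, and 1 rose. Mrps26 lost its call there (limma, adjusted p = 0.061). Without the 2 h replicate 1, the untreated replicate 2 or the untreated replicate 3 alone the calls were 6, 7 and 5. The shares lower were then 6.49%, 9.09% and 6.49%, against 6.04%, 7.4% and 7.6% of all genes. With replicate number within genotype as a block, 21 fell and 2 rose, against 16.0% of all genes lower. Centring arrays on their medians or quantile normalization each left 6 lower (7.79%) and 1 higher, against 7.76% and 8.31% of all genes lower.

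By 4 h of LPS, 30 of the 77 members had fallen in HET cells and 4 had risen. This was 39.0% lower and 5.19% higher, against 20.7% and 15.7% of all genes. With dim genes left out, which removes none of the members, 31 members (40.3%) were lower against 33.9% of the remaining genes. That filter does not match genes to the members by brightness. The median member changed by −0.32 (all genes 0.09), and 42 members had an unadjusted p under 0.05. Of all 19475 genes, 9240 did.

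Mrpl49 read 9.65, 10.09 and 10.00 at 4 h, all below its untreated arrays, for a change of −1.21 (SE 0.124, adjusted p = 3.29e-06 in limma), a 2.31-fold fall. Mrps26 went from 9.59, 9.58 and 9.72 to 7.94, 8.90 and 8.51, a change of −1.18 (SE 0.196, adjusted p = 0.00025). Its treated arrays lay well apart from each other, with replicate 1 lowest, yet none reached the untreated ones. Mrpl50, a large-subunit protein without bacterial counterpart, went from 10.22, 10.00 and 10.46 to 8.65, 9.32 and 9.46. That change was −1.08 (SE 0.192, adjusted p = 0.000428), and again the groups did not overlap.

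Mrps18b encodes 1 of 3 mammalian paralogs of the bacterial protein S18. Its product occupies a place of its own in the small subunit, so it is counted here among proteins without a counterpart. It read 11.94, 11.72 and 11.71 untreated and 10.60, 11.15 and 11.07 at 4 h, falling by 0.85 (SE 0.133, adjusted p = 0.000145). Mrpl51 went from 10.25, 10.80 and 10.78 to 9.08, 10.04 and 9.91, a change of −0.93 (SE 0.264, adjusted p = 0.0127). Its replicate 1 arrays were low in both groups. Without the 4 h replicate 1 alone the adjusted p was 0.0777, and from the arrays of the comparison alone it was 0.0606. With HET replicate 1 left out at all times the change was −0.81 (adjusted p = 3.62e-06, limma). The remaining 25 that fell did so by 0.26 to 0.79, with Mrps35, Mrps23, Mrpl36, Mrpl34 and Mrpl17 next in size. All 12 members lower at 2 h were also lower at 4 h, in comparisons that share the untreated arrays.

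The 4 members that rose in HET at 4 h all encode large-subunit proteins. Mrpl52, which has no bacterial counterpart, read 11.23, 10.96 and 10.87 untreated, 11.73, 11.47 and 11.24 at 2 h and 11.93, 11.71 and 11.40 at 4 h. All 3 arrays at 4 h lay above the untreated ones, and the change was 0.66 (SE 0.151, adjusted p = 0.00313 in limma). Mrpl30 went from 10.26, 10.41 and 10.14 to 10.65, 10.57 and 10.76, a change of 0.39 (adjusted p = 0.00807). Mrpl13 rose by 0.52 (adjusted p = 0.0144), from 9.07, 9.70 and 9.50 to 10.12, 10.01 and 9.72. Its call rested on replicate 1: without it at all times the change was 0.26 (adjusted p = 0.164). Mrpl27, whose bacterial counterpart lies at the peptidyl transferase centre, rose by 0.31 (adjusted p = 0.0221); it lost the call without the untreated replicate 1 (0.20, adjusted p = 0.0931) or the 4 h replicate 2 or 3.

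Without HET replicate 1 at all times, 33 members fell and 4 rose in HET at 4 h, against 21.6% of all genes lower. With the replicate block within genotype 44 fell and 5 rose, against 26.6% of all genes lower. Without the 4 h replicate 1 array alone 17 fell and 4 rose, with a median of −0.16 (−0.155), against 16.0% of all genes lower. Quantile normalization gave 23 lower and 7 higher and a median of −0.10, against 17.5% of all genes lower.

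**Figure D2:**
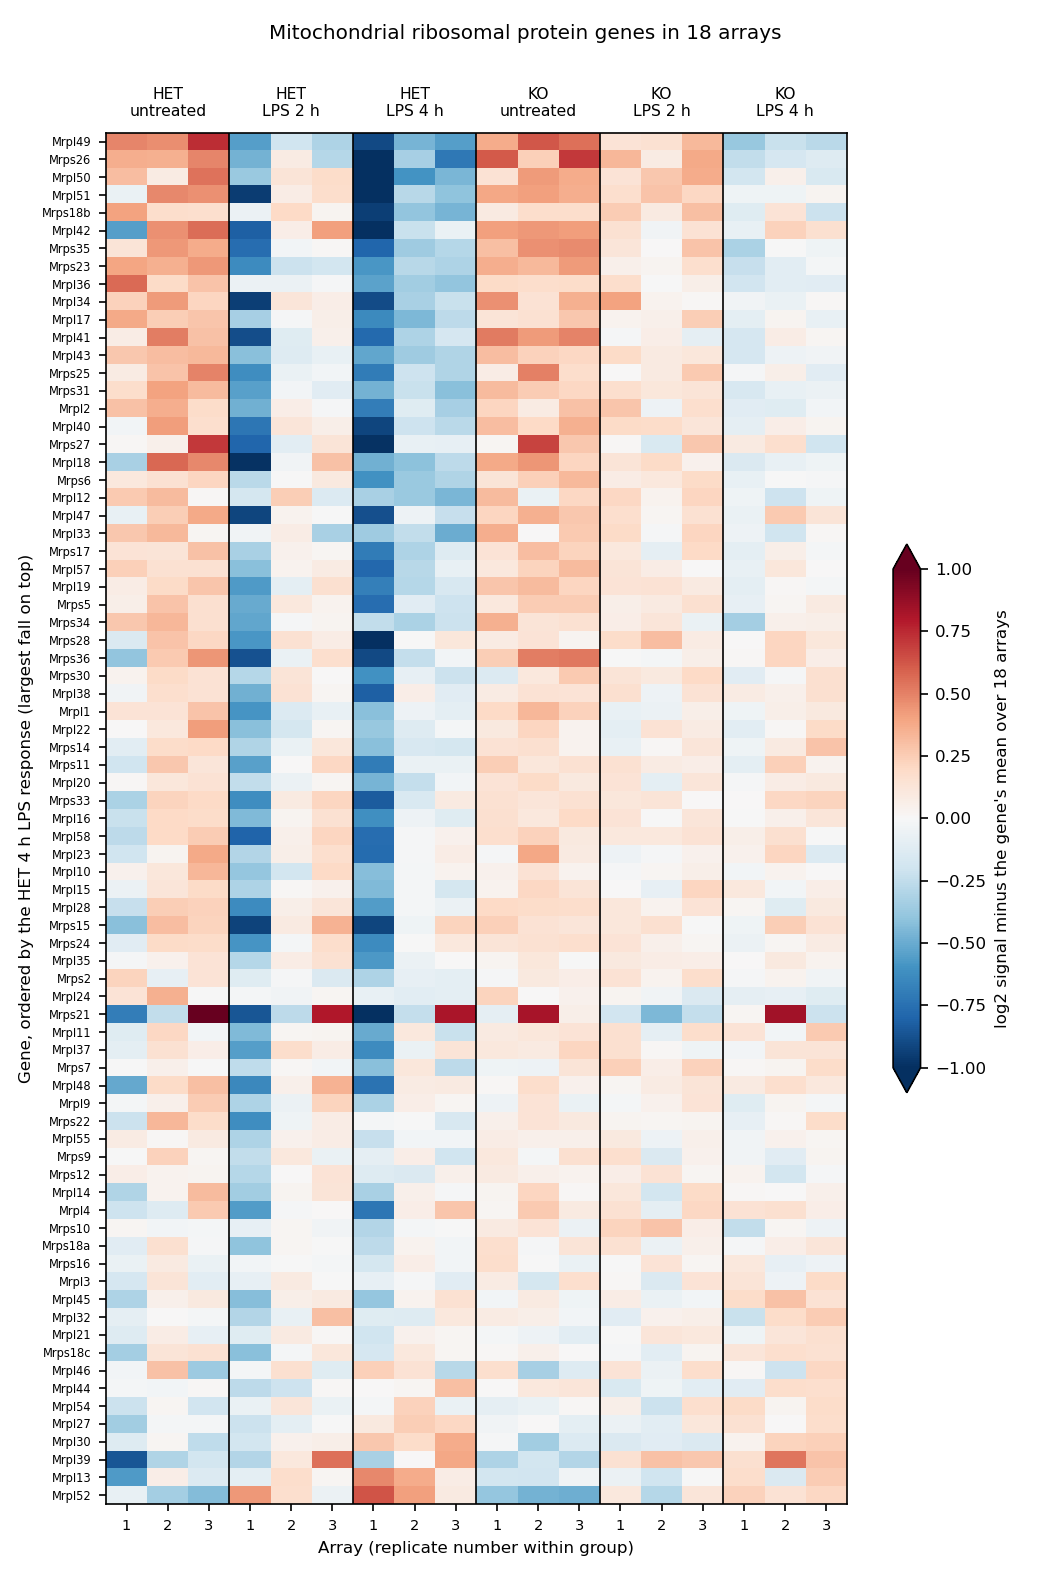
The log2 signal of each of the 77 members (rows, ordered by the HET change at 4 h) on each of 18 arrays (columns, by genotype and LPS time), minus the gene's mean over all arrays; red is higher and blue lower, with colours saturating at 1 and −1. HET replicate 1 at 2 h and 4 h is the bluest column, the topmost row, Mrpl49, is blue in all 3 HET 4 h arrays, and the lowest row, Mrpl52, is red there.

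In KO cells fewer members were called in the fit over all groups, and all of those were also called in HET cells. Fitted on the arrays of each comparison alone, the counts were 4 in KO and 2 in HET at 2 h, and 20 in KO and 21 in HET at 4 h. Of these, 3 and 2 were lower at 2 h, against 4.71% and 3.11% of all genes, and 18 and 20 at 4 h, against 17.1% and 12.7%. At 2 h no member was called in limma, while 1.35% of all genes fell and 2.0% rose, and the median member changed by −0.07. An unadjusted p under 0.05 was found there for 6 members and for 2346 of all 19475 genes. At 4 h 6 members fell and 2 rose, 7.79% and 2.6%, against 9.28% lower and 6.48% higher among all genes. With dim genes left out, 7 were lower against 16.1% of the rest. The median member changed by −0.10 (all genes 0.02).

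The 6 that fell in KO cells were Mrpl49, Mrps26, Mrps23, Mrps31, Mrpl43 and Mrpl36, and the 2 that rose were Mrpl52 and Mrpl30. All 8 were called in HET cells in the same direction, which is the whole of the KO calls and 23.5% of the 34 HET calls. Mrpl49 read 10.92, 11.17 and 11.11 untreated and 10.17, 10.33 and 10.28 at 4 h in KO. No treated array reached an untreated one, and the change was −0.81 (SE 0.124, adjusted p = 0.00027). Mrps26 went from 9.84, 9.47 and 9.93 to 8.98, 9.06 and 9.10, a change of −0.70 (SE 0.196, adjusted p = 0.0228), again without overlap. It was not called with quantile normalization (limma, adjusted p = 0.113), nor without the untreated KO replicate 1 or 3 or any 1 of the KO 4 h arrays.

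Mrps23 read 11.01, 10.97 and 11.07 untreated and 10.41, 10.54 and 10.62 at 4 h, a change of −0.49 (SE 0.112, adjusted p = 0.00623). Mrps31, Mrpl43 and Mrpl36 fell by 0.36, 0.33 and 0.32 (adjusted p = 0.0421, 0.0174 and 0.0226). The Mrps31 call was lost whichever untreated or 4 h KO array was left out, and with quantile normalization (−0.185, limma, adjusted p = 0.167). The Mrpl43 call was lost without replicate 1 of either of these KO groups. Mrpl52 went from 10.92, 10.83 and 10.81 to 11.53, 11.44 and 11.51, the tightest arrays among its groups, and rose by 0.64 (SE 0.151, adjusted p = 0.00755). That is within 0.02 of its change in HET (0.66). Mrpl30 rose by 0.33 (adjusted p = 0.0418), beside 0.39 in HET. Its KO call was lost from the arrays of the comparison alone (limma, adjusted p = 0.0517), and without replicate 2 or 3 of either of these KO groups.

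The KO count at 4 h depended on the spread shared with the HET groups, since the KO differences are the same with and without HET arrays. When HET replicate 1 was left out at all times, 20 members fell and 4 rose, against 18% of all genes lower. With the replicate block within genotype 12 fell and 3 rose, against 15.7% lower, and leaving out any single KO array left 4 or 5 calls; quantile normalization gave 4 lower and 4 higher. The 2 h count in KO became 4 lower and 2 higher without HET replicate 1, against 4.81% and 3.55% of all genes (members 5.19% lower). With the block it was 1 lower and 2 higher, against 3.45% and 3.85%.

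**Figure D3:**
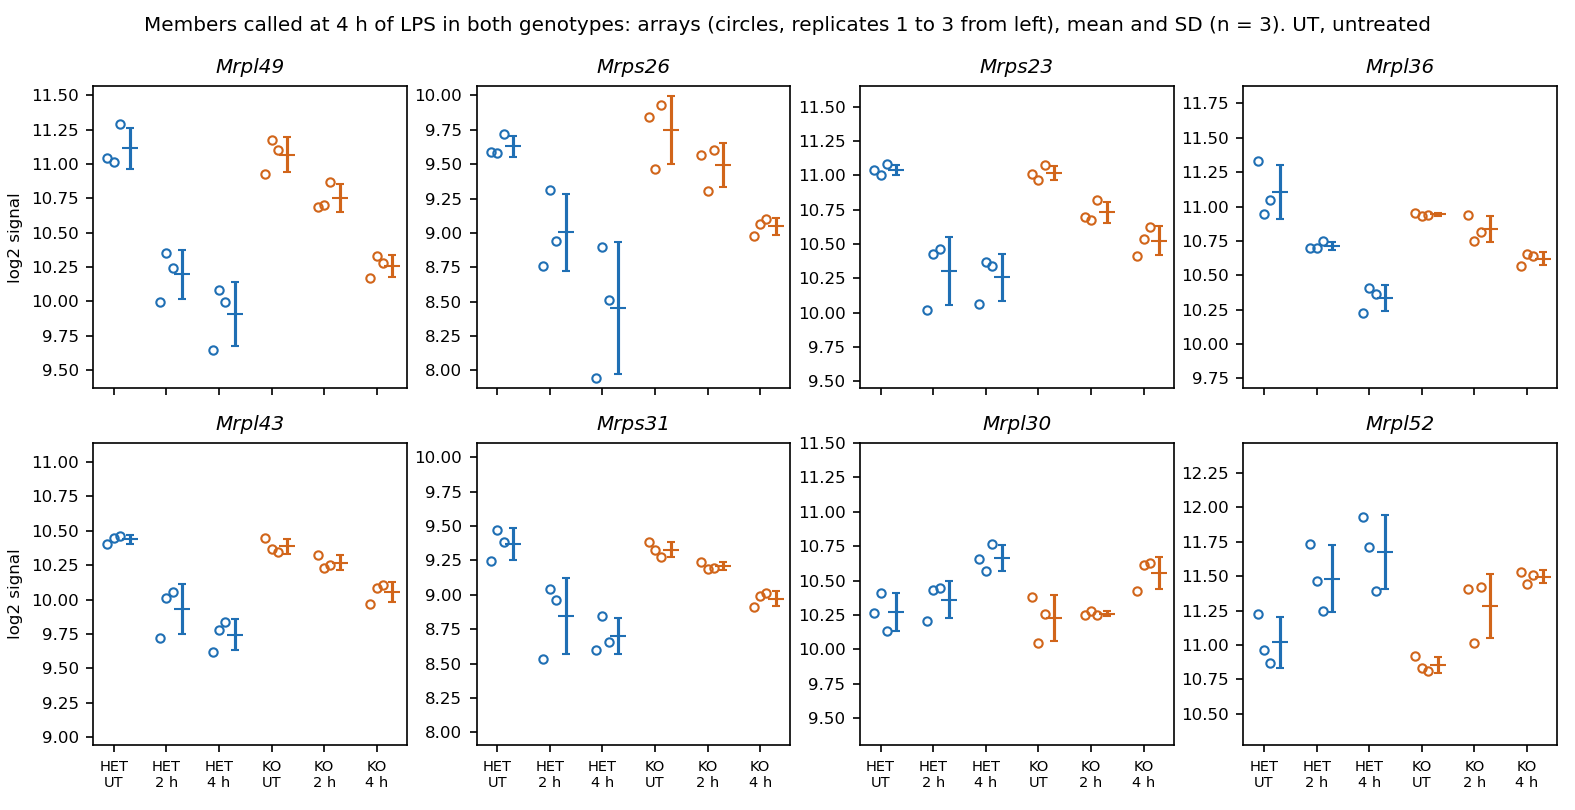
The log2 signal of the 8 members called at 4 h in both genotypes, by group on the x axis, with circles for the 3 arrays and a bar for their mean and SD; each panel spans the same log2 range. Mrpl49 falls from a mean of 11.12 to 9.91 in HET and from 11.07 to 10.26 in KO, and Mrpl52 rises from 11.02 to 11.68 and from 10.85 to 11.50.

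The LPS responses of the genotypes were not shown to differ for any single member. In the test of the difference itself (KO response minus HET response), 0 members were called at 2 h or at 4 h in limma. The counts at an unadjusted p under 0.05 were 5 and 7 members, and 1099 and 1403 of all 19475 genes. At 2 h 0.0% of all genes were called higher and 0.0% lower, and at 4 h 0.0103% and 0.0411%. The member differences lay mostly above 0: 65 of 77 at 2 h (median 0.14, all genes 0.03) and 70 of 77 at 4 h (median 0.23, all genes −0.02).

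The smallest p at 4 h belonged to Mrpl36, with a difference in response of 0.45 (SE 0.128, adjusted p = 0.418), then Mrps18b (0.64, SE 0.188) and Mrpl17 (0.52, SE 0.157; adjusted p = 0.438 for both). At 2 h it belonged to Mrpl49 (0.60, SE 0.175, adjusted p = 0.52), then Mrpl43 and Mrps23 (0.39 and 0.45; adjusted p = 0.618 and 0.69). For the 30 members that fell in HET at 4 h, the KO change was below 0 in 30 and nearer to 0 in 30, with a median of −0.28 against −0.66. Those 30 were chosen by their HET values, which favours a smaller value elsewhere. Leaving out HET replicate 1, the median difference in response was 0.05 at 2 h and 0.16 at 4 h, with no member called. Without the HET 2 h replicate 1 array alone, with the untreated replicate 1 kept, the 2 h median was −0.01 (−0.006, all genes 0.04). The direction of the 2 h median thus differed between these settings. Only leaving out HET replicate 1 at all times removes it from both sides of the HET response. Without the HET 4 h replicate 1 array alone the 4 h median was 0.09 (0.085).

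**Figure D4:**
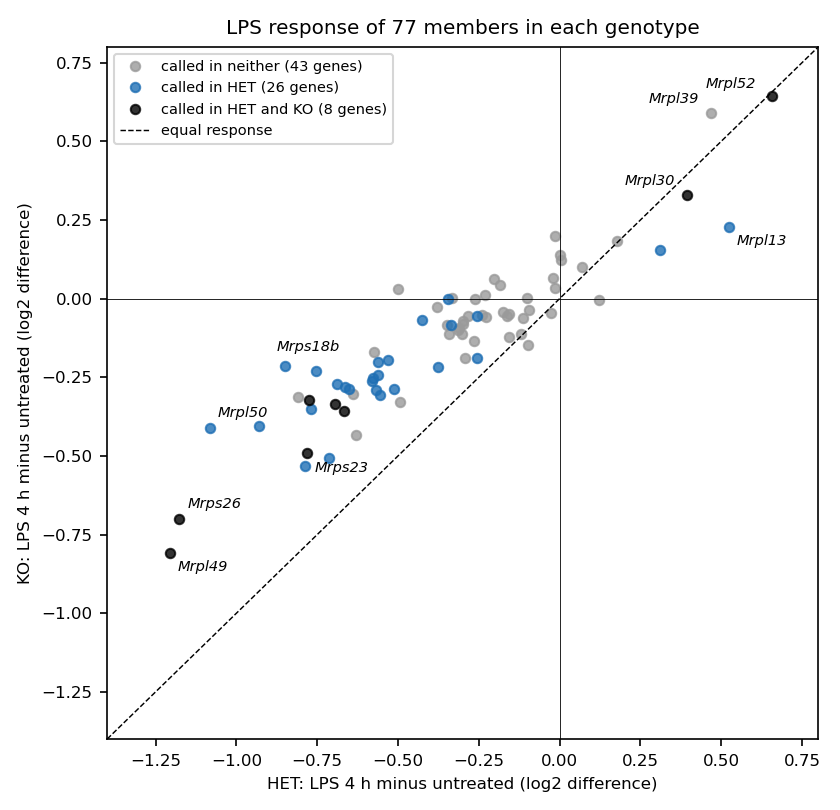
Change at 4 h of LPS in KO (y axis) against HET (x axis), both as log2 differences from untreated cells, for 77 members; colours mark calls and the dashed line equal responses. Most members with a HET change below 0 lie above the line, with Mrpl49 at −1.21 and −0.81, while Mrpl52 (0.66 and 0.64) lies close to it.

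Compared directly, KO and HET cells differed in few members. In untreated cells 0 of 77 were called in limma, against 0.0565% of all genes higher in KO and 0.359% lower. There 0 members and 864 of all 19475 genes had an unadjusted p under 0.05. The smallest p values belonged to Mrpl36 (−0.17), Mrps36 (0.33) and Mrpl52 (−0.17), each with an adjusted p = 1. The member median was 0.05, and −0.04 without HET replicate 1.

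At 2 h of LPS 1 member was higher in KO, Mrpl49, against 1.22% of all genes higher and 1.54% lower. Its KO arrays read 10.68, 10.70 and 10.87 and its HET arrays 10.00, 10.35 and 10.24, which do not overlap. The difference was 0.56 (SE 0.124, adjusted p = 0.0277), and 0.46 without HET replicate 1 at all times (adjusted p = 0.0397). It was not called with arrays centred on their medians (adjusted p = 0.0517), nor without the HET 2 h replicate 1 or 3 or any 1 of the KO 2 h arrays. The member median was 0.19 (all genes 0.00), with 9 members at an unadjusted p under 0.05, but 0.03 without HET replicate 1. Of all 19475 genes, 2920 were at an unadjusted p under 0.05.

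At 4 h 2 members were higher in KO, Mrps18b and Mrps6, against 1.32% of all genes higher and 1.1% lower. Mrps18b read 11.42, 11.68 and 11.33 in KO and 10.60, 11.15 and 11.07 in HET, a difference of 0.54 (SE 0.133, adjusted p = 0.0468). Mrps6, a small-subunit protein with a bacterial counterpart, read 9.64, 9.71 and 9.69 in KO and 9.10, 9.34 and 9.41 in HET, a difference of 0.40 (SE 0.0993, adjusted p = 0.0492). For both, every KO array lay above every HET array. With HET replicate 1 left out Mrps18b lost its call (0.37, adjusted p = 0.0632) and Mrps6 kept it (0.30, adjusted p = 0.0421). The member median was 0.28 (all genes −0.06), with 26 members at an unadjusted p under 0.05, and 0.13 without HET replicate 1. Of all 19475 genes, 3940 were at an unadjusted p under 0.05. No member was called without the HET 4 h replicate 1 alone or without any 1 of the KO 4 h arrays, or with arrays centred; with the block within genotype Mrps18b was at an adjusted p of 0.0776 and 1 member was called.

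Between 2 h and 4 h of LPS, 4 members fell in HET cells: Mrpl50, Mrps18b, Mrpl36 and Mrps6. Of all genes 4.39% fell and 3.8% rose in that interval. Mrpl50 changed by −0.75 (adjusted p = 0.0234 in limma), from 9.55, 10.04 and 10.10 to 8.65, 9.32 and 9.46. Mrps18b changed by −0.66 (adjusted p = 0.00581), having read 11.49, 11.74 and 11.57 at 2 h. For these 2 genes the 2 h and 4 h arrays did not overlap, so most of their fall came after 2 h. Mrps23 differed in timing: it changed by −0.74 by 2 h and by −0.05 from 2 h to 4 h (adjusted p = 0.865).

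In KO cells 1 member, Mrpl49, fell from 2 h to 4 h, by 0.49 (SE 0.124, adjusted p = 0.0336), against 1.69% of all genes lower and 2.69% higher. With HET replicate 1 left out at all times, 8 members (10.4%) fell in HET and 6 (7.79%) in KO, against 8.79% and 7.69% of all genes. With the block within genotype 9 fell and 3 rose in HET and 2 fell in KO, against 8.99% lower and 7.41% higher among all genes in HET and 5.05% lower in KO. Without the 4 h replicate 1 alone the HET count was 1 and the member median turned from −0.10 to 0.02; without the 2 h replicate 1 the count was 12, and without the 2 h replicate 2 or 3 it was 1. The KO call was lost without any 1 of the 6 KO arrays.

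By position in the ribosome, the small-subunit proteins without bacterial counterpart had the largest share of falls. In HET at 4 h 7 of 10 of them fell (Mrps26, Mrps18b, Mrps35, Mrps23, Mrps25, Mrps31 and Mrps34), with a median of −0.68. Of the 16 small-subunit proteins with a bacterial counterpart 5 fell (median −0.26). In the large subunit 10 of 30 with a counterpart fell and 3 rose (median −0.30), and 8 of 20 without one fell and 1 rose (median −0.34). Of all genes 20.7% fell, and 33.9% did with dim genes left out. In KO at 4 h the counts lower were 3 of 10, 0 of 16, 1 of 30 and 2 of 20, in the same order. Of all genes 9.28% were lower there, and 16.1% with dim genes left out. With HET replicate 1 left out the counts were 8, 4, 12 and 8 in HET and 4, 1, 7 and 7 in KO. These classes follow the structure rather than the symbol: Mrps30 and Mrps18a carry small-subunit symbols but their products sit in the large subunit. The difference between classes was not tested.

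Of the members named whatever they did, some changed little and others fell. Mrps12, the counterpart of the bacterial decoding-centre protein S12, changed by −0.12 in HET and −0.11 in KO at 4 h (adjusted p = 0.333 and 0.509), with HET arrays of 8.51, 8.48 and 8.48 untreated and 8.32, 8.30 and 8.49 treated. Mrpl44, which has a ribonuclease III fold, changed by 0.12 and 0.00. Of the paralogs of S18, Mrps18b fell in HET as above, while Mrps18a and Mrps18c changed by −0.09 and 0.00 (adjusted p = 0.523 and 0.986). Mrpl12, the counterpart of the bacterial stalk protein that has also been reported to bind the mitochondrial RNA polymerase, fell in HET at 4 h by 0.58 (SE 0.124, adjusted p = 0.00199). It read 10.77, 10.82 and 10.51 untreated and 10.18, 10.14 and 10.05 treated, without overlap; the KO change was −0.25 (adjusted p = 0.211). Mrps36, now assigned to the oxoglutarate dehydrogenase complex rather than the ribosome, changed by −0.49 and −0.33 (adjusted p = 0.143 and 0.464). After leaving out HET replicate 1, both of its changes were called (adjusted p = 0.00694 and 0.0255).

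Genes for the other parts of mitochondrial translation also fell in HET at 4 h, in shares that were not tested against that of the ribosomal proteins. Of all genes 20.7% fell there and 15.7% rose, and 33.9% fell with dim genes left out. Of 19 measured mitochondrial aminoacyl-tRNA synthetase genes, including amidotransferase subunits, 15 fell and 0 rose (median −0.57), with Gatc at −1.98 and Mars2 at −1.22 (adjusted p = 0.00258 and 0.000179). Of 15 translation factor genes 11 fell and 1 rose (median −0.61). Among them the release factor Mtrf1l fell by 1.04 and Slirp, an RNA-binding partner of Lrpprc, rose by 0.56. Of 25 assembly genes 14 fell and 1 rose (median −0.48). Rbfa, which helps mature the small subunit, fell by 1.27, and Trmt61b, a methyltransferase of mitochondrial RNA, rose by 1.09. Of 4 mitoribosomal proteins with other symbols 2 fell, Ptcd3 (−0.83) and Gadd45gip1 (−0.56).

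Of 17 genes for mitochondrial DNA transcription, RNA handling and copying, 11 fell and 2 rose in HET at 4 h. Fastkd3 changed by −1.47 and the transcription factor Tfb2m by −1.15, while the elongation factor Tefm (0.81) and the exoribonuclease Pnpt1 (1.34) rose. In KO at 4 h the counts lower were 1 of 19 synthetases, 1 of 15 translation factors, 3 of 25 assembly genes and 5 of 17 in the mitochondrial DNA list. Of all genes 9.28% were lower in KO, and 16.1% with dim genes left out. Fastkd3 (−1.04), Mtrf1l (−0.66), Tefm (0.63), Pnpt1 (1.29), Trmt61b (0.90) and Slirp (0.59) kept their direction and were called there. The KO counts rested on the shared spread: with HET replicate 1 left out they were 12 of 19, 10 of 15, 8 of 25 and 8 of 17, while the HET counts were 15, 11, 13 and 11.

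The products of this ribosome join respiratory chain complexes, few of whose nuclear genes were called. Of 78 nuclear genes of the respiratory chain and ATP synthase 3 fell and 1 rose in HET at 4 h (median −0.13). In KO 0 were called in limma. There 1 of them and 5141 of all 19475 genes had an unadjusted p under 0.05. Of 61 cytosolic ribosomal protein genes 7 fell and 3 rose in HET (median −0.09), with Rpl12 at −2.0, and 1 fell and 1 rose in KO. Of 24 cell cycle genes 1 was called in each genotype, Pcna, with medians of −1.03 in HET and −0.59 in KO. With HET replicate 1 left out, 22 of the 24 were called lower in HET and 24 in KO, and the respiratory chain counts were 6 and 2 lower.

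Among 14 regulators of nuclear genes for mitochondria, 5 fell and 3 rose in HET at 4 h. Myc, a driver of growth genes, fell by 2.06 (SE 0.321, adjusted p = 0.000138), and Max, its partner, rose by 1.11. Pprc1, a coactivator of the PGC-1 family, fell by 1.07. In KO at 4 h Max rose by 0.86, Yy1 fell by 0.40 and Sp1 by 0.31. With HET replicate 1 left out 5 fell and 1 rose in HET, and 4 fell and 2 rose in KO. KO cells had more Myc than HET cells after LPS, by 1.32 at 2 h (adjusted p = 0.04) and by 1.47 at the later time (adjusted p = 0.0268). Leaving out HET replicate 1 gave 1.06 and 1.25 (adjusted p = 0.113 and 0.0401).

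**Figure D5:**
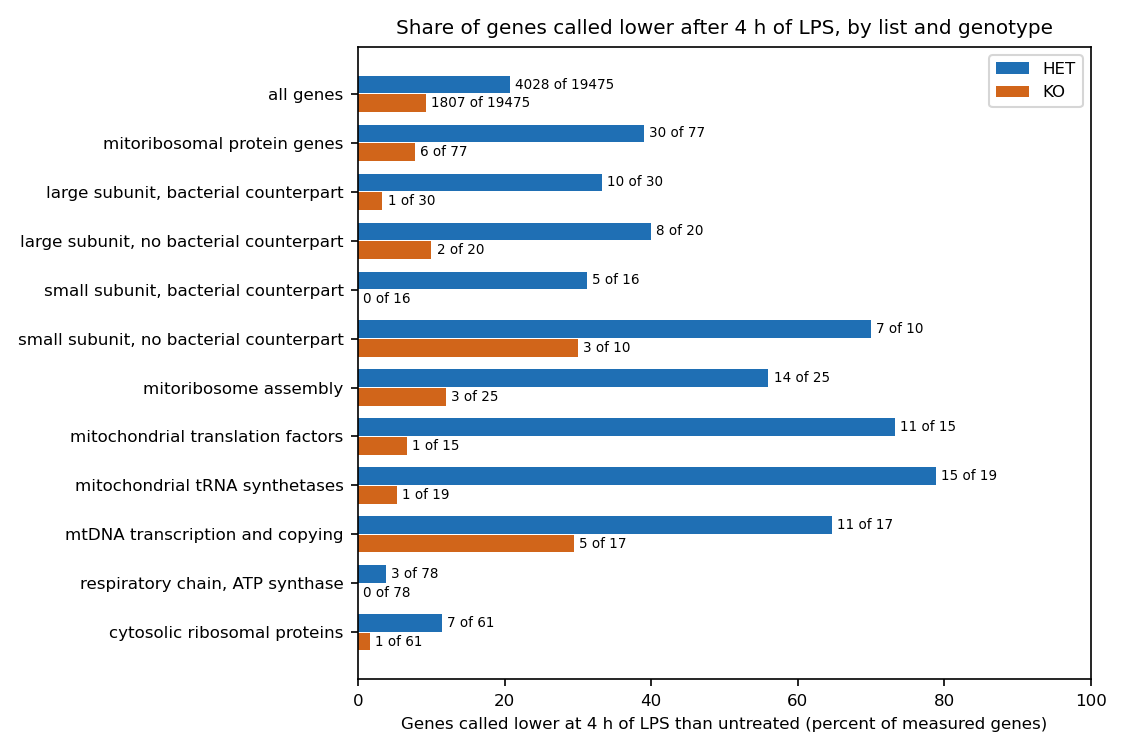
Percent of measured genes called lower at 4 h of LPS than untreated (x axis) in HET and KO, for all genes, the 77 members, their 4 structural classes and related lists, with counts beside the bars. In HET the members (30 of 77) lie between all genes (20.7%) and the tRNA synthetases (15 of 19); each KO bar drawn is shorter than its HET bar, in counts that rest on the spread shared by both genotypes.

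Across the 18 arrays most members followed one another. The correlation of each member with the mean of the others had a median of 0.84; 64 members were above 0.5 and 6 below 0. Nearest to the others were Mrpl51 (0.979), Mrpl47 (0.976), Mrpl40 and Mrps5 (both 0.969). Farthest were Mrpl52 (−0.80), Mrpl13 (−0.41) and Mrpl30 (−0.37), which rose in HET at 4 h. Without HET replicate 1 the median over 15 arrays was 0.658. The counts above 0.5 and below 0 include the HET replicate 1 arrays. Without those arrays some members changed sign, such as Mrpl4 (0.794 to −0.043), and others became higher, such as Mrpl36 (0.603 to 0.953). The correlation was not computed for other genes, so it is not shown to be particular to the members. These values describe arrays that share groups and, in part, cultures.

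For 8 members the platform has more than 1 probe set, and the brightest was used. Both probe sets of Mrpl51 fell in value in HET at 4 h (−0.93 for the one used, −1.20 for the other), and both of Mrpl27 were higher (0.31 and 0.28). Those of Mrpl41 were both lower, at −0.71 for the one used and −0.31 for the other. Those of Mrpl47 disagreed, at −0.57 and 0.07. Mrpl47 is therefore uncertain; with the probe set used it was not called in HET at 4 h. Whether the probe sets of Mrpl27, Mrpl41, Mrpl51 and Mrps5 also match other copies of these genes was not tested.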

How the data were processed

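RNA of 18 macrophage samples, 3 in each of 6 groups, was hybridised to Affymetrix gene arrays. The authors deposited log2 signals for each probe set, from RMA in Partek 6.5 per the submitters' processing notes; RMA settings: not given in the sources used here. Array medians lay between 8.05 and 8.13, and no further scaling was applied. Of 25344 probe sets, the 21137 assigned to a single gene gave 19475 genes, with the brightest probe set per gene; 1530 with several genes and 2677 with none were left out. As these are arrays, there is no read depth, and their number limits the precision.

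A limma 3.58.1 model (R 4.3.3) with 6 group means was fitted to all genes (12 residual degrees of freedom, prior degrees of freedom 3.17), and p was adjusted over all genes. Lists are described by counts and medians, with no set test. Python 3.11.15 counted motifs, and matplotlib 3.10.9 drew the figures. The fit was also run on simulated data with independent noise on each array. That run held no replicate pattern like the one seen here, so it does not test the calls under such a pattern.

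The members, gene lists, motifs, alternatives and rule for names were chosen with earlier results of these data known. The rule named Wbp7; Mrpl12, Mrps12, Mrpl44, Mrps18a, Mrps18b, Mrps18c and Mrps36 always; every called member (10 or fewer) between genotypes, or the 3 with the smallest p if none was called; the 5 highest and 5 lowest called members of each LPS comparison; up to 2 called genes each way per list; and the 3 highest and 3 lowest correlations. Other members are named to complete a count.

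The alternatives tried were centring each array on its median, quantile normalization, dim genes left out, the mean of probe sets, the arrays of a contrast alone, each array left out, HET replicate 1 left out at all times, and replicate number as a random block. Deviations from the group mean, over genes, correlated by 0.32 to 0.796 between same-numbered arrays within a genotype (18 pairs) and by −0.353 to 0.39 across genotypes. Numbers were therefore taken to mark a culture inside each genotype, which no label says.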

Additional observations from a re-analysis of the deposited data

How the results depend on the processing

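No called value of a named member changed sign under any alternative run. Of the values for named members, 1583 kept their side of the threshold, 98 lost it and 15 gained it. Counts of members called moved by over 1.5 times as follows. For KO against HET at 2 h (1), the count was 0 with arrays centred, 3 each with quantile normalization, without dim genes and with the replicate block over all arrays, 0 from the arrays of the contrast alone, and 0 to 4 with each array left out. For KO against HET at 4 h (2) it was 0 centred, 1 with quantile normalization, 6 with the block over all arrays, 1 with the block within genotype, 0 from the contrast's arrays and 0 to 5 with each array left out. The HET 2 h response (12) gave 7 centred, 7 with quantile normalization, 23 with the replicate block within genotype, 2 from its own arrays and 5 to 15 with each array left out. The KO 2 h response (0) gave 2 with quantile normalization, 3 with the block, 6 without HET replicate 1 and 4 from its own arrays. The HET 4 h response (34) gave 21 from its own arrays and 21 to 37 with each array left out; its median was −0.10 with quantile normalization. The KO 4 h response (8) gave 15 with the block, 24 without HET replicate 1, 20 from its own arrays and 4 to 5 with each KO array left out; its median was −0.05 (−0.045) with quantile normalization. From 2 h to 4 h, HET (4) gave 12 with the block, 8 without HET replicate 1, 0 from its own arrays and 1 to 12 with each array left out. KO (1) gave 0 centred, 2 with the block, 6 without HET replicate 1, 2 from its own arrays and 0 with each array left out; its median was 0.03 (0.028) with quantile normalization. The median of untreated KO minus HET was −0.04 (−0.036) without HET replicate 1, with −0.036 to 0.07 (0.074) over single arrays left out. Whichever array was left out, Mrpl49, Mrps26, Mrpl50, Mrps18b, Mrpl30, Mrpl52 and Mrpl12 kept their call in HET at 4 h, and Mrpl49, Mrps23 and Mrpl52 theirs in KO. The cause of these shifts was not tested.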

Other observations

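Mrps21, a small-subunit protein with a bacterial counterpart, varied more between arrays of a group than any other member in 5 of the 6 groups, with an SD of 0.97 in untreated HET cells. Its signal followed the replicate number in HET: 11.31, 11.15 and 10.94 on the arrays of replicate 1, 11.76, 11.75 and 11.77 on those of replicate 2, and 13.18, 12.81 and 12.82 on those of replicate 3, at 0 h, 2 h and 4 h. In KO, replicate 2 read 12.83 untreated and 12.85 at 4 h but 11.56 at 2 h, and the other KO arrays lay between 11.77 and 12.06. Mrps21 was not called in any LPS response (adjusted p = 0.721 in HET and 0.965 in KO at 4 h, limma).

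Mrpl39 was higher on every LPS-treated KO array (11.87 to 12.26) than on the untreated KO arrays (11.41 to 11.54), with a change at 4 h of 0.59 (SE 0.213, adjusted p = 0.0774). In HET it was higher within each replicate number: 10.87, 11.42 and 11.54 untreated against 11.40, 11.73 and 12.11 at 4 h (adjusted p = 0.0944). Both genes were singled out after their values were seen.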
